A study of Mus musculus with 6 samples.

Results

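Integrins are the cell's receptors for the extracellular matrix, and laminins are the matrix proteins that many of them bind. The genes for both were selected by their symbols: integrin alpha chains (Itga), integrin beta chains (Itgb1 to Itgb8 and Itgb2l) and laminin alpha, beta and gamma chains (Lama, Lamb and Lamc). There were 36 such genes among the 49366 genes with an ATAC-seq window at their transcription start sites, 25 of them integrins and 11 laminins. The annotation holds 38 matching genes, and Itga1 and Itgam matched no row of the deposited window counts. Rows with low mean counts had already been removed from these, and whether that took out Itga1 and Itgam was not checked. The rule used symbols alone, but it was chosen with earlier results of these data known.

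Each integrin is a pair of 1 alpha and 1 beta chain that crosses the plasma membrane and ties the cytoskeleton to the matrix outside. Each laminin is a trimer of an alpha, a beta and a gamma chain, and laminins polymerise into the basement membrane that wraps every muscle fibre. In adult muscle fibres the main laminin holds the chains Lama2, Lamb1 or Lamb2, and Lamc1, and its integrin receptor is the pair of Itga7 and Itgb1. Loss of Lama2 or of Itga7 causes muscular dystrophy. Yap, a coactivator of the Hippo pathway that works through the DNA-binding TEAD factors, is itself sensitive to adhesion and tension.

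ATAC-seq, which reads out open chromatin through the cuts of a transposase, was run on nuclei sorted for PCM1, a protein at the envelope of muscle fibre nuclei. Both groups were male C57BL/6J mice treated at 8 weeks of age with AAV6 vectors, one expressing a short hairpin RNA (shRNA) against Yap (Yap-shRNA) and the other one against the bacterial gene lacZ (LacZ-shRNA, the control). The vectors were given to the gastrocnemius and tibialis anterior of opposite legs, and muscles were taken 28 days later. Each group had 3 replicates, each pooled from 4 gastrocnemius and 4 tibialis anterior muscles, so a replicate is a pool and not 1 animal. The plasmid described for Yap-shRNA carries the broadly active CMV promoter and eGFP, and whether the LacZ-shRNA vector carries the same elements was not checked here. The window counts summed to between 3326803 (LacZ-shRNA replicate 2) and 10319467 (Yap-shRNA replicate 2) per sample.

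A window here joins the stretches within 1 kb of the transcript starts annotated for a gene, and a peak is a region that the authors' peak caller marked in at least 2 samples. Levels are given as CPM, counts relative to the library's total, scaled by TMM, a correction for library composition, and levels of different genes are compared only per kb of window. The tested difference is a log2 fold change, Yap-shRNA minus LacZ-shRNA, by edgeR's quasi-likelihood test over all windows or all peaks, with its standard error (SE) and an adjusted p. A feature was called when its adjusted p was under 0.05.

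Sequences of peaks at these genes with the smallest p are shown first. They are on the plus strand of build GRCm38, in lower case with the part of interest in capitals. The intronic peak of Lamb3 was the more strongly supported of the 2 peaks that were called. Of its 3 matches to the E-box CAGCTG, bound by muscle regulatory factors such as MyoD, 2 lie in the 300 bases from chr1:193315974-193316273 and are in capitals.
Lamb3 intronic peak: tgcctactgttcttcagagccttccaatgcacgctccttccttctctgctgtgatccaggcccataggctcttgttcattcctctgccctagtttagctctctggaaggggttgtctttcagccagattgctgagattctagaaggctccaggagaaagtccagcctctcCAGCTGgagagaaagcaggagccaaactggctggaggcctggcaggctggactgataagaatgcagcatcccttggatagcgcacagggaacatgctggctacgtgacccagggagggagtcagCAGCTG
The intronic peak of Lama1, described with the results, was the other called peak.
The third in order of p among lower peaks lies in an intron of Lama2 and was not called. Capitals in chr10:27063743-27064042 mark its match to the AP-1 motif TGANTCA.
Lama2 intronic peak: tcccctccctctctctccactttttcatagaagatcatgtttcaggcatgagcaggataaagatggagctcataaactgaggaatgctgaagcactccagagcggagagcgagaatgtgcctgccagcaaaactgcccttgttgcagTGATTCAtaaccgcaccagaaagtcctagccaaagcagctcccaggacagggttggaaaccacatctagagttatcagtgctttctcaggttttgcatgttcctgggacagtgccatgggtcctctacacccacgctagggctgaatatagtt
The higher peak with the smallest p covers an internal start of Itga2b. Capitals in chr11:102467314-102467613 mark its match to the TEAD motif ACATTCC.
Itga2b promoter peak: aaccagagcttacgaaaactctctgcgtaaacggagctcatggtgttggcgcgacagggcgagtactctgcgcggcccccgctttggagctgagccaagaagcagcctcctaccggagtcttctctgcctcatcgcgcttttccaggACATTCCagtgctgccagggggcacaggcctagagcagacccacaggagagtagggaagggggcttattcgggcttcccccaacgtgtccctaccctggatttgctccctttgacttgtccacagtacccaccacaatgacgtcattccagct

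RefSeq promoters (GRCm38.p6) were at hand for 22 of the 36 genes, 25 promoters in all, and the 250 bases before the start are shown for 2 laminins, each on the strand of its gene. The Lama2 promoter, chr10:27616943-27617192 on the minus strand, holds a CArG box, the site of serum response factor, in capitals.
Lama2 promoter: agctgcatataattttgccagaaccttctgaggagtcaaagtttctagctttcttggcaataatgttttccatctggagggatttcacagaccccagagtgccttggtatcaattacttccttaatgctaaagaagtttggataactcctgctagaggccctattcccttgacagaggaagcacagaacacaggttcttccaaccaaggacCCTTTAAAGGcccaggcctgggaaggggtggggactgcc
The Lamb3 promoter, chr1:193301993-193302242 on the plus strand, was the only one of the 25 with a TEAD match, in capitals.
Lamb3 promoter: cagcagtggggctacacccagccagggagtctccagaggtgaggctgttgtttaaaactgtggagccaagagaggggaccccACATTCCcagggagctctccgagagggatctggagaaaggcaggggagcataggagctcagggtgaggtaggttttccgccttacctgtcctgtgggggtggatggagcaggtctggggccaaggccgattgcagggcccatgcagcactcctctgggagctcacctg
Motifs were searched as exact matches on both strands. TEAD matches lay in 1 of the 25 promoters (4.0%) and in 3.85% of all 32851 promoters of the same length. For AP-1 the count was 3 of 25 against 7.81% of all promoters, and for the E-box it was 8 of 25 against 16.3%. MEF2, the site of the muscle factors of that name, was matched in the promoter of Itga10 alone, and CArG in those of Lama2 and Itgb6, against 3.19% and 1.63% of all promoters. A match in so short a string is a description of the letters and not of binding.

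The first question was whether these genes were accessible in myonuclei at all. In the LacZ-shRNA samples the median of the 36 windows was 7.02 CPM per kb, against 4.50 over all windows and 3.25 over the windows of 1102 olfactory receptor genes, which are silent in muscle. Of the 36 windows 32 lay above the median of all windows, the exceptions being Itgad, Itga8, Lama2 and Lama4. That median takes in every type of gene with a window, and the members were not compared with coding genes alone. Of these exceptions only Lama4 has a window that overlaps no other. A level above that median does not by itself mark an open promoter, and 18 of the 36 genes had a peak within 1 kb of a start. The labelled cell type was clear in the same tables, since the 8 muscle fibre marker windows ran from 14.7 CPM per kb (Mylpf) to 58.3 CPM per kb (Tnni2).

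**Figure D1:**
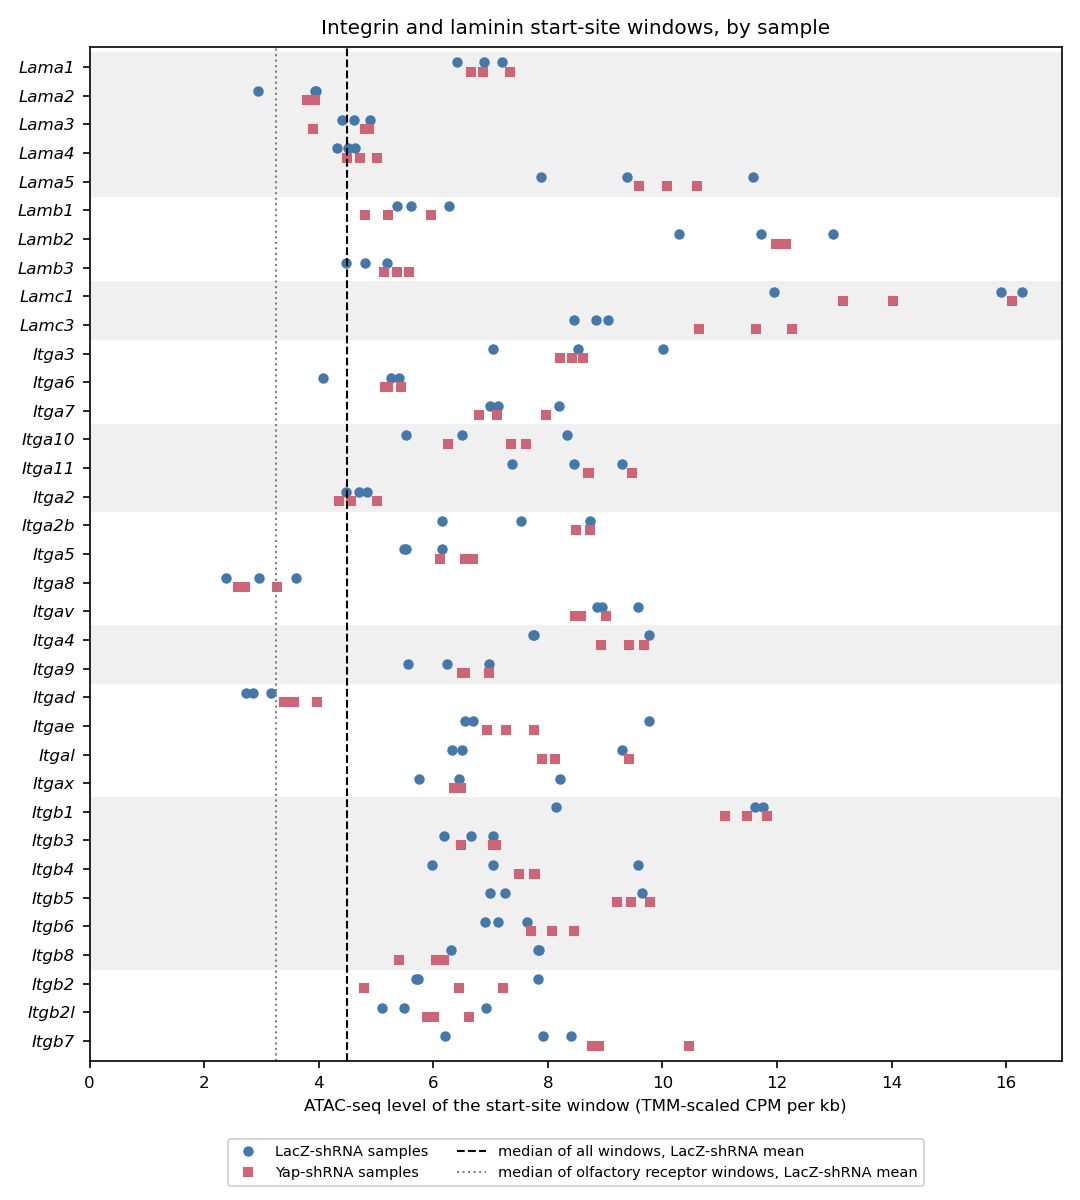
Level of the members' start-site windows (1 member is not shown) in CPM per kb (horizontal axis, TMM-scaled), with the 3 LacZ-shRNA samples as circles and the 3 Yap-shRNA samples as squares, and role groups in alternating bands. The dashed line is the median of all windows and the dotted line that of olfactory receptor windows. Lamc1 was highest and Itgad and Itga8 were lowest, and only in Lamc3, Itgad, Itgb6, Itgb7 and Itgb8 do the groups not overlap.

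The chains of the muscle laminin stood far apart in window level. Lamc1, the gamma chain shared by most laminins, had the highest window of all members, with 11.95, 15.9 and 16.3 CPM per kb in LacZ-shRNA replicates 1, 2 and 3 and 16.1, 13.2 and 14.0 CPM per kb in the Yap-shRNA replicates. LacZ-shRNA replicate 1 was the lowest of the 6 and the groups overlapped. Lamb2, the beta chain enriched at the neuromuscular junction, followed with a LacZ-shRNA mean of 11.7 ± 1.35 CPM per kb (SD, n = 3). Its window overlaps that of Usp19, and a read in both cannot be assigned to either.

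Lama2, the alpha chain whose loss causes congenital muscular dystrophy, had the lowest window among the laminins. This window overlaps that of Gm36962, and a read in both cannot be assigned to either, so the level may be understated. It also averages over 8150 bases around 7 annotated starts, so an open start is diluted by the others. The Lamc1 window is alike in width, with 8278 bases around 5 starts. Among peaks within 1 kb of a start, that of Lama2 held 16.2 CPM per kb in the LacZ-shRNA mean. The highest one of Lamc1 held 47.8 CPM per kb. The Lama2 window held 3.95, 2.95 and 3.94 CPM per kb in control replicates 1, 2 and 3 and 3.94, 3.80 and 3.88 CPM per kb after Yap-shRNA. Its LacZ-shRNA mean lay at the 32.6th percentile of all windows. LacZ-shRNA replicate 2, the shallowest library, was the low sample and the other 5 lay close together. Lama4, the alpha chain of vessel basement membranes, was at 4.49 ± 0.16 CPM per kb and Lama5 at 9.62 ± 1.86 CPM per kb. Lama1, Lama3, Lamb1, Lamb3 and Lamc3 lay between 4.64 and 8.78 CPM per kb.

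Among the laminin-binding integrin alpha chains, Itga7 held 6.99, 7.14 and 8.20 CPM per kb in LacZ-shRNA samples and 7.11, 7.97 and 6.80 CPM per kb in Yap-shRNA samples. The groups overlapped throughout. Itga3, better known from epithelia, was at 8.53 ± 1.49 CPM per kb and did not differ from Itga7 beyond their spread, while Itga6 was lower at 4.92 ± 0.73 CPM per kb. Itgb1, the beta chain that most of the alpha chains pair with, had the highest integrin window, with 8.15, 11.6 and 11.7 CPM per kb in LacZ-shRNA samples and 11.8, 11.5 and 11.1 CPM per kb in Yap-shRNA samples. LacZ-shRNA replicate 1 again was the low sample.

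The RGD-binding chains, receptors for fibronectin and vitronectin, ran from Itga8 at 2.98 CPM per kb to Itgav at 9.12 CPM per kb in the LacZ-shRNA mean. The collagen-binding chains ran from Itga2 at 4.67 to Itga11 at 8.37 CPM per kb, and Itga9 and Itga4 were at 6.25 and 8.42 CPM per kb. As a group, the windows of leukocyte integrins were not at the level of the olfactory receptor windows. Itgad was lowest of all members at 2.92 CPM per kb, but Itgae, Itgal and Itgax lay between 6.80 and 7.67 CPM per kb and Itgb2, Itgb2l and Itgb7 between 5.84 and 7.51 CPM per kb. For comparison, 7 leukocyte marker windows ran from 3.58 (Ptprc) to 9.00 CPM per kb (Cd68). Fewer nuclei of a type and less open chromatin per nucleus cannot be told apart in such bulk samples.

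Knockdown of Yap was compared with its control next. No member window was called (0 of 36, by edgeR), against 0.0223% of all windows, and 2 had an unadjusted p under 0.05, both higher. DESeq2, which gave an adjusted p for 29 of them, and limma voom also called 0. An unadjusted p under 0.05 in the higher direction was seen in 1.9% of all windows and in the lower direction in 3.01%. The median log2 fold change of the 36 was 0.08, against -0.01 over all windows, with 24 higher and 12 lower. The medians of single samples varied around their group by an SD of 0.08, which is about the size of the shift.

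Lamc3, the gamma chain of laminins in nerve and vessel walls, had the smallest p. Its window (gene on chr2:31887291-31946539) held 35.8, 34.3 and 36.7 CPM in the LacZ-shRNA samples and 47.2, 43.1 and 49.7 CPM in the Yap-shRNA samples. All 3 Yap-shRNA samples lay above all 3 controls. The log2 fold change was 0.38 (SE 0.14, unadjusted p 0.0072) and did not hold after adjustment over all windows (adjusted p 0.946 by edgeR). The sign was the same in every alternative fit, between 0.34 and 0.44.

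Itgb7, the beta chain of gut-homing lymphocyte integrins (chr15:102215995-102231944), was the other window with an unadjusted p under 0.05. It held 27.7, 37.5 and 35.3 CPM in LacZ-shRNA samples and 39.1, 39.7 and 46.7 CPM in Yap-shRNA samples. The groups did not overlap, though the control at 27.7 CPM stood well below the other two. The log2 fold change was 0.33 (SE 0.14, unadjusted p 0.028, adjusted p 0.946 by edgeR). It ran from 0.21 without LacZ-shRNA replicate 1, the low control, to 0.40 without LacZ-shRNA replicate 2.

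Windows whose groups did not overlap were 4 higher (Lamc3, Itgb7, Itgad and Itgb6) and 1 lower (Itgb8) of 36. Over all windows 5.31% did not overlap in the higher direction and 4.79% in the lower. Itgb8, which activates latent TGF-beta, held 15.9, 12.8 and 15.9 CPM in controls and 10.999, 12.6 and 12.3 CPM after Yap-shRNA. Its gap between groups was narrow, with a log2 fold change of -0.34 (SE 0.17, adjusted p 0.946 by edgeR). Itgad had 0.31 (SE 0.15) and shares its window with 2 other genes, and Itgb6 had 0.16 (SE 0.13).

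**Figure D2:**
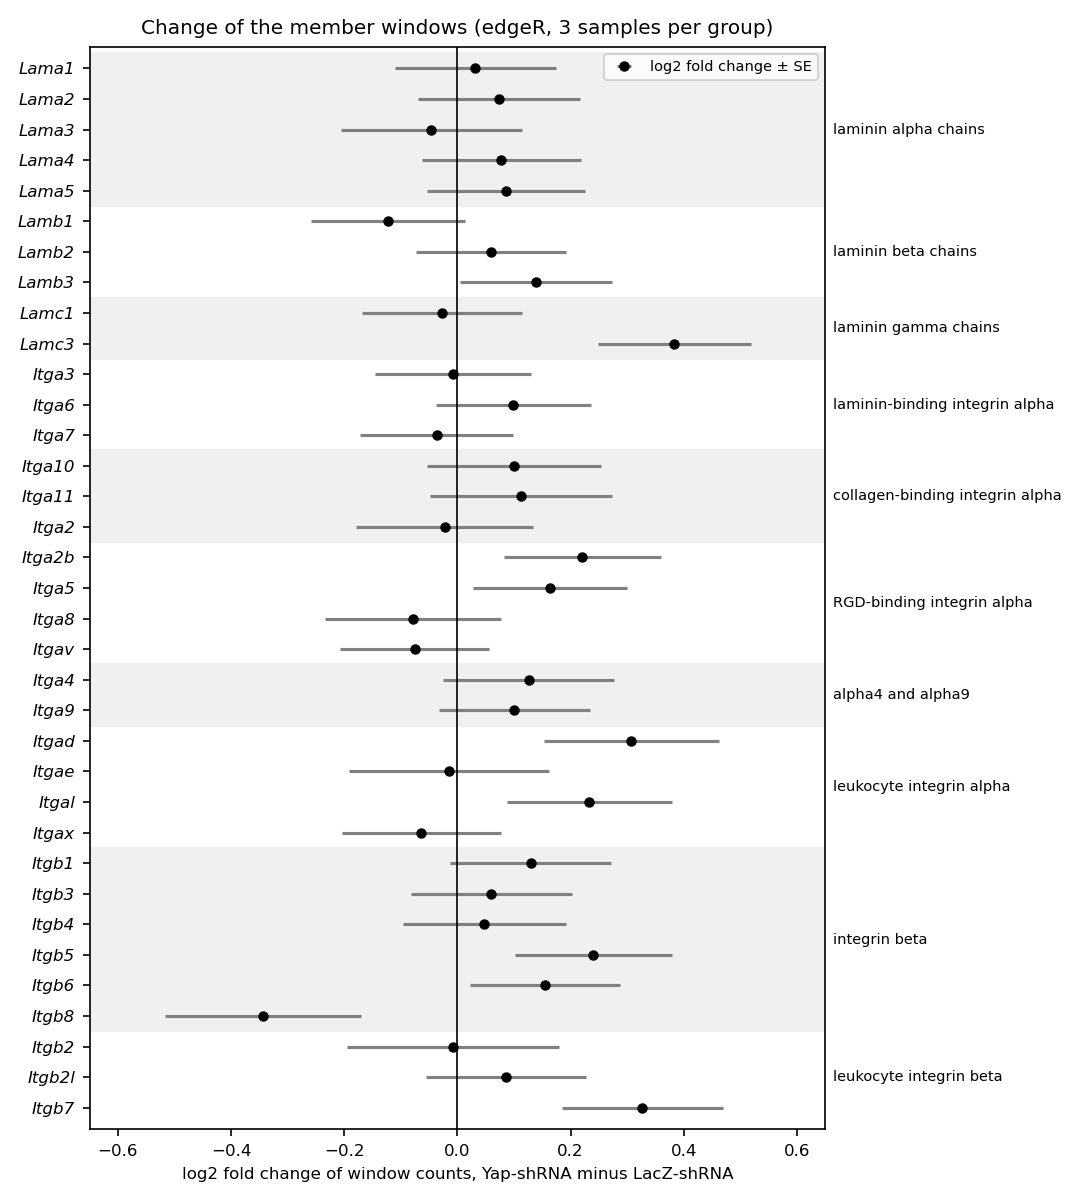
Log2 fold change of counts in the member windows (1 is not shown) (horizontal axis), Yap-shRNA minus LacZ-shRNA, with bars of 1 SE, ordered by role. The values run from -0.34 for Itgb8 to 0.38 for Lamc3, and no window passed an adjusted p of 0.05.

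The fibre's own laminin and receptor chains showed small values. Log2 fold changes were 0.07 (SE 0.14) for Lama2, -0.12 (SE 0.14) for Lamb1, 0.06 (SE 0.13) for Lamb2 and -0.03 (SE 0.14) for Lamc1. Itga7 was at -0.04 (SE 0.14) and Itgb1 at 0.13 (SE 0.14). Each of these 6 was under 1 SE from 0. Lama4 (0.08), Lama5 (0.09), Itga6 (0.10) and Itgav (-0.08) were alike in size, and Itga5, the fibronectin receptor chain, was at 0.16 (SE 0.14). Without LacZ-shRNA replicate 1 the values of Itgb1, Itga6, Lama5 and Lamb2 turned slightly negative, between -0.030 and -0.019.

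That replicate weighed on many members. LacZ-shRNA replicate 1 was the lowest of the 6 samples at 19 of the 36 windows, while each other sample was lowest at 2 to 7. It also had the highest level over olfactory receptor windows, 4.22 CPM per kb against 2.72 to 3.13 in the other 5. In the 18 members with windows richer in G and C, its log2 ratio to LacZ-shRNA replicate 2 had a median of -0.26, and in the 18 others it was -0.05. The ratio was taken to LacZ-shRNA replicate 2 alone, so it does not tell which replicate departed. The part of this replicate in the higher median of the members was not tested beyond leaving it out, which gave a median of 0.02.

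Cell type markers were examined beside these values. Of the 8 muscle fibre marker windows 7 had negative values, with a median log2 fold change of -0.14, and 0 had an unadjusted p under 0.05. Of 6 fibroblast marker windows 3 had an unadjusted p under 0.05 and were higher (Pi16 0.42, Col1a1 0.39 and Col3a1 0.34), and the other three (Pdgfra, Dcn and Lum) had values between -0.26 and -0.12. Their summed level ran from 148 to 156 CPM in controls and from 160 to 188 CPM after Yap-shRNA, so the groups did not overlap. Of 7 leukocyte marker windows, 4 had positive values, and 1 (Csf1r, 0.32) had an unadjusted p under 0.05, and their summed level overlapped, 146 to 190 CPM against 175 to 193 CPM. Kdr and Tie1 of endothelial cells were lower (-0.59 and -0.37, unadjusted p 0.0012 and 0.045), with the other 4 endothelial markers between -0.17 and 0.16. None of these marker windows passed adjustment, and the part of such cells in the values of Lamc3 and Itgb7 was not tested.

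The partners of integrins and laminins gave no call either. Among 25 genes of cytoplasmic adhesion complexes, such as talins, vinculin and integrin-linked kinase, 0 were called and the median log2 fold change was 0.01, from -0.21 (Actn2) to 0.25 (Actn1). Among 15 basement membrane proteins and other laminin receptors, 0 were called and 1 had an unadjusted p under 0.05, Fbln2, which encodes fibulin-2, at 0.28 (SE 0.14, adjusted p 0.946 by edgeR). The median of that list was 0.06. Dag1, which encodes dystroglycan, the other major laminin receptor of the fibre, had the highest level of the list, 28.5 CPM per kb, and a log2 fold change of -0.06 (SE 0.14). Of the 6 Yap, Taz and Tead genes none was called, and Yap1 itself was at 0.04 (SE 0.18). An shRNA acts on RNA, so the Yap1 window is no check of the knockdown.

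Peaks were then linked to a member when they overlapped the gene or lay within 10 kb of one of its starts. This gave 105 of 36097 peaks at 30 members. None was linked to Itga2, Itgb2, Itgb2l, Itgb4, Itgb8 or Lamb1. By place, 58 were intronic, 22 within 1 kb of a member's start (promoter), 13 upstream, 11 exonic and 1 downstream. For 15 of the 105 the nearest coding start was that of another gene, among them the peak of 116 CPM at Usp19 beside Lamb2 and the peak of 123 CPM at Adrm1 beside Lama5.

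Lama2 had the most linked peaks, 12, of which 11 were intronic, spread over the gene (chr10:26980036-27619758). Excluding the peak shown above, its intronic peaks ran from 2.08 to 5.83 CPM in the LacZ-shRNA mean, and its promoter peak held 7.50 CPM. Itgb5, a vitronectin receptor chain, had 9 peaks between 16.3 and 46.3 CPM. In CPM not scaled by width, the strongest promoter peak assigned to its own gene was that of Lamc1 (109 ± 13.5 CPM, SD, n = 3). Those of Itgav (42.4 ± 3.48 CPM) and Itgb1 (41.8 ± 6.34 CPM) followed. Per kb of peak, Lamc1 stayed first at 47.8 CPM, with Itgb1 at 29.7 CPM and Itgav at 28.4 CPM. Itga7 had no promoter peak, and its highest one was exonic (42.8 ± 1.73 CPM).

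Of the 105 peaks 2 were called (1.9%, against 0.618% of all peaks), both lower in Yap-shRNA and both in introns of laminin genes. Over all peaks 17 were called higher and 206 lower, and with scaling by library size alone the split was 124 and 105. An unadjusted p under 0.05 was found for 7 linked peaks in the higher direction, against 3.59% of all peaks, and for 7 in the lower, against 5.31%. Groups did not overlap at 8 peaks in the higher direction (6.55% of all peaks) and at 7 in the lower (6.76%). The median log2 fold change was 0.02, against -0.003 over all peaks.

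The called Lamb3 peak (chr1:193315758-193317774) encompasses 2017 bases in an intron, 2921 bases from the nearest Lamb3 start. It held 76.7, 68.8 and 79.3 CPM in the LacZ-shRNA samples and 55.8, 53.4 and 46.0 CPM in the Yap-shRNA samples. Every Yap-shRNA sample lay below every control. The log2 fold change was -0.54 (SE 0.12, adjusted p 0.020 by edgeR). It kept its sign in 15 alternative fits, from -0.60 to -0.40, and was called in 11 of them. The exceptions were library size alone (adjusted p 0.18) and leaving out Yap-shRNA replicate 1, 2 or 3 (0.052, 0.13 and 0.14). Lamb3 is a chain of laminin-332, the laminin of skin and other epithelia. The Lamb3 start-site window, which overlaps that of G0s2, had groups that overlapped and a value of 0.14 (SE 0.13, adjusted p 0.953 by edgeR), and the Lamb3 peak at the start of G0s2 was at -0.25 (adjusted p 0.64 by edgeR).

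The called Lama1 peak lies in an intron of the gene, which encodes the alpha chain of embryonic laminin. It ranked 72nd of all peaks in CPM, not scaled by width. The LacZ-shRNA samples held 277, 507 and 262 CPM and the Yap-shRNA samples 167, 151 and 267 CPM. The groups overlapped, with LacZ-shRNA replicate 2 far above the rest and Yap-shRNA replicate 3 at the level of the other controls. The log2 fold change was -0.83 (SE 0.19, adjusted p 0.025 by edgeR). Without LacZ-shRNA replicate 2 it was -0.47 (adjusted p 0.37 by edgeR), without Yap-shRNA replicate 1 -0.73 (0.21) and without Yap-shRNA replicate 2 -0.68 (0.30). The call was also lost with DESeq2 (adjusted p 0.66), with the offset on abundance (0.23) and among peaks with a mean count of at least 50 (0.15).

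The Lama1 peak holds the repeat of chromosome ends, which was followed through all peaks. It has 29 copies of CCCTAA or its complement, and 48.1% of its bases are soft-masked as repeats. At least 4 tandem copies were found in 208 peaks, of which 167 were lower in Yap-shRNA with a median log2 fold change of -0.24. Of these 208 peaks 12 were called (5.77%), all lower, against 0.584% of the other 35774 peaks, whose median was -0.0009. Without the Lama1 peak the other 207 had median levels of 11.8, 11.5 and 7.95 CPM in LacZ-shRNA samples and 8.06, 8.34 and 9.92 CPM in Yap-shRNA samples. The Lama1 peak and the median of the other 207 were both below their mean of 6 samples in Yap-shRNA replicates 1 and 2 and in LacZ-shRNA replicate 3, the control in which the median of the 207 was the lowest of the 6. Whether reads from chromosome ends or other copies were counted there was not tested.

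A further linked peak held the repeat, in an intron of Lamb3 nearer to the start of Hsd11b1 (chr1:193227524-193228209, 18 copies). It held 42.7, 59.4 and 29.0 CPM in LacZ-shRNA samples and 25.8, 23.9 and 41.5 CPM in Yap-shRNA samples. As at Lama1, LacZ-shRNA replicate 2 was highest and Yap-shRNA replicates 1 and 2 were lowest, and the log2 fold change was -0.46 (SE 0.18, adjusted p 0.346 by edgeR). The called Lamb3 peak and the Lama2 peak hold no copy.

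**Figure D3:**
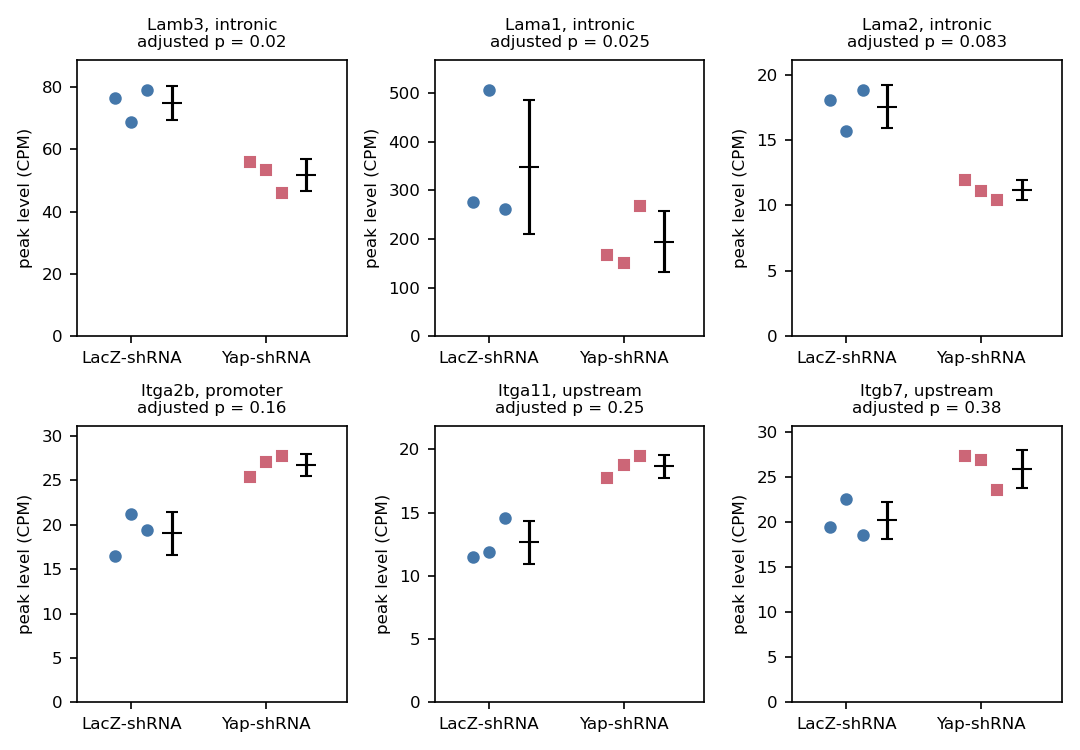
Levels (CPM, vertical axis from 0) of the 3 linked peaks with the smallest p among those lower in Yap-shRNA (top) and higher (bottom), with 1 point per sample and the mean ± SD beside them (n = 3). The groups do not overlap except at the Lama1 peak, where LacZ-shRNA replicate 2 stands at 507 CPM.

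The Lama2 intronic peak (chr10:27063457-27064177) lay 555941 bases from the gene's first start and 6812 bases from its nearest annotated start. It held 18.1, 15.7 and 18.9 CPM in LacZ-shRNA samples and 11.9, 11.1 and 10.4 CPM in Yap-shRNA samples. The groups stood apart, and the log2 fold change of -0.67 (SE 0.18) missed the threshold (adjusted p 0.083 by edgeR). It passed in 1 of 15 alternative fits, the likelihood-ratio test (adjusted p 0.036). It was the highest of the 12 Lama2 peaks. The other 11 peaks of the gene, most of them the low and repeat-rich ones described above, had 6 positive and 5 negative values.

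Of the 7 linked peaks with an unadjusted p under 0.05 in the higher direction, 4 were at promoters, 2 upstream and 1 in an intron (of Lama3, 0.56). The Itga2b peak (chr11:102466695-102467706), at the platelet fibrinogen receptor gene, held 16.4, 21.2 and 19.4 CPM in controls and 25.3, 27.1 and 27.8 CPM after Yap-shRNA. The groups did not overlap and the log2 fold change was 0.50 (SE 0.15, adjusted p 0.164 by edgeR). It was called in 1 of 15 alternative fits, with scaling by library size alone (adjusted p 0.043). A peak upstream of Itga11, the collagen receptor chain of fibroblasts, had 0.52 (SE 0.18, adjusted p 0.252 by edgeR) and one upstream of Itgb7, nearer to the start of Rarg, had 0.39 (SE 0.15, adjusted p 0.376 by edgeR). Neither of these was called, and both had groups that did not overlap.

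The 22 promoter peaks had a median log2 fold change of 0.17, against 0.02 for all 12565 peaks within 1 kb of a start. Of the 22, 4 (18.2%) had an unadjusted p under 0.05 and were higher, at Itga2b, Itga5, Itgal and Itgb5, against 4.41% of all peaks near starts. Among these, the groups overlapped at Itga5, Itgal and Itgb5 and not at Itga2b. The other 83 linked peaks had a median of -0.01, against -0.03 for all 23417 other peaks. None of the promoter peaks was called. The ratio of peak counts to window counts also differed between the groups, 0.704 to 0.778 in LacZ-shRNA and 0.649 to 0.688 in Yap-shRNA, and its part in these values was not tested.

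**Figure D4:**
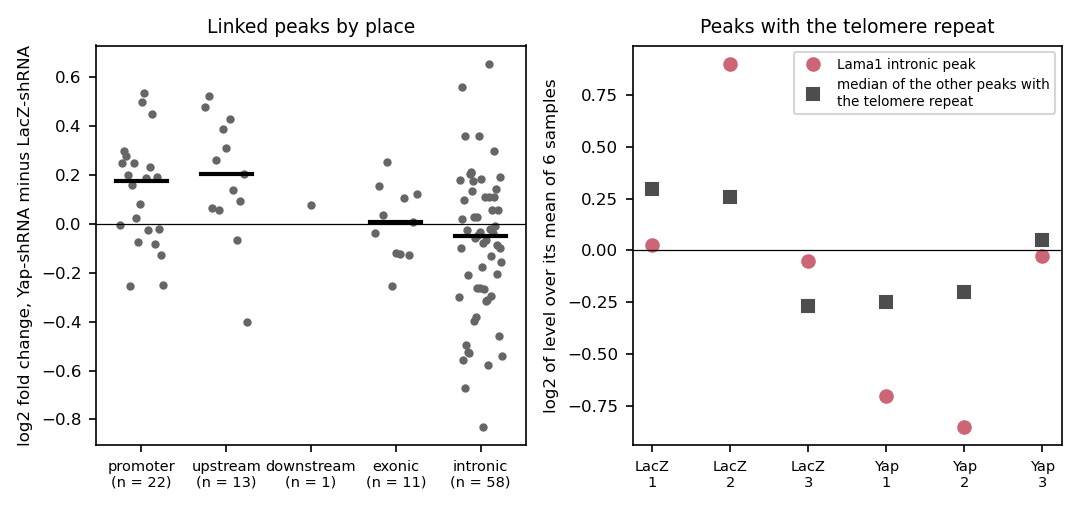
Left, log2 fold change (Yap-shRNA minus LacZ-shRNA) of the 105 linked peaks by place, with the median as a bar (0.17 at promoters and -0.05 in introns). Right, level of the Lama1 intronic peak and the median level of the other 207 peaks with the telomere repeat in each sample, as log2 of the value over its own mean of 6 samples, where Yap-shRNA replicates 1 and 2 and LacZ-shRNA replicate 3 are below the mean for both.

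TEAD matches were looked up in the linked peaks. Among the 105, 11 held at least 1 match anywhere, 6 with higher and 5 with lower values in Yap-shRNA and a median log2 fold change of 0.01, against 0.03 for the 94 without. In the central 300 bases, TEAD matches lay in 1.90% of linked peaks and 2.17% of all peaks, and AP-1 matches in 8.57% and 5.20%. E-box matches lay there in 16.2% and 17.2%, and 46 of the 105 held an E-box anywhere, so that of the called Lamb3 peak is common. The 2 TEAD-holding peaks with the smallest p were those of Lama1 and Itga2b, with opposite signs.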

How the data were processed

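ATAC-seq was analysed in 3 LacZ-shRNA and 3 Yap-shRNA samples. The submitters' processing notes name BWA 0.7.17, SAMtools 1.8, MACS 1.4.2-1 and featureCounts 1.5.0 on build GRCm38. The authors mapped reads, removed duplicates, called peaks with MACS and kept those detected in 2 samples or more. The deposited files hold whole-number counts, not normalised, per peak and per start-site window, with rows under a mean of 10 already removed. The study's methods give a minimum mapping quality of 10 for counting over whole genes, and do not say whether it was also applied to these tables. A read that falls in overlapping windows of different genes cannot be assigned to either, which touches 13 of the 36 windows. Of overlapping windows with a peak inside, 49.2% held nearly all of the peak's counts, against 99.98% of windows that overlap no other.

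Counts were compared with edgeR 4.0.16 in R 4.3.3 (quasi-likelihood test, TMM factors, no covariate), with Benjamini-Hochberg adjustment over all 49366 windows or all 36097 peaks at 0.05, and the test was run on simulated data first. DESeq2 1.42.0, limma 3.58.1 (voom), other scalings, a replicate block, feature filters and leaving out each sample were the alternatives. DESeq2 withheld an adjusted p from 7 of the 36 windows, and those are not counted as tested. Positions come from GENCODE on GRCm38 and sequences from RefSeq. No 2 replicates of a group were alike to within counting error. Genes named are the fibre's main chains (Itga7, Itgb1, Itga5, Itga6, Itgav, Lama2, Lama4, Lama5, Lamb1, Lamb2 and Lamc1), windows with an unadjusted p under 0.05, the highest and lowest level of each role group, called peaks, the 3 linked peaks with the smallest p in each direction and the highest linked peak of the main chains. The windows and peaks with groups that do not overlap, the second peak with the repeat and the promoter peaks were named after their values were seen, as was the count of telomere repeats (at least 4 tandem copies). The members and lists were chosen with earlier results of these data known. Satellite cell, smooth muscle and pericyte, and Schwann marker lists were also examined, with 0 windows called and 1 unadjusted p under 0.05 (Calcr, lower). The values of 1 member window and the sequence of 1 peak are not reported here. Samples are pools of muscles, and the p-values measure the spread between these pools.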

Additional observations from a re-analysis of the deposited data

How the results depend on the processing

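With 3 pools a group, and fewest counts in LacZ-shRNA replicate 2, small differences at single windows could not be resolved. In every alternative, 0 member windows and 0 partner windows were called. The number of member windows with an unadjusted p under 0.05 was 2, and it was 4 with the likelihood-ratio test, 7 with library size alone, 5 with the offset on abundance and 1 to 5 when 1 sample was left out (1 when that was Yap-shRNA replicate 3 or LacZ-shRNA replicate 1, 5 when it was LacZ-shRNA replicate 2). The 2 called member peaks became 1 with DESeq2, 1 with the offset on abundance, 1 among peaks averaging 50 counts or more, 0 with a link of 1 kb and 0 to 4 when 1 sample was left out (0 without Yap-shRNA replicate 1 or 2, 1 without LacZ-shRNA replicate 2 and 4 without LacZ-shRNA replicate 3). Without peaks that hold the telomere repeat, an alternative chosen after seeing the data, 1 remained, that of Lamb3. Member peaks with an unadjusted p under 0.05 numbered 14, and 23 with library size alone, 4 with a link of 1 kb and 9 to 16 when 1 sample was left out, the 9 being without Yap-shRNA replicate 2. The median log2 fold change of linked peaks was 0.17 with library size alone, which moved the median of all peaks to 0.14, and 0.17 with a link of 1 kb. It was -0.01 without Yap-shRNA replicate 3. Among windows that overlap no other, 21 of 23 members were above the median, fewer because fewer were counted. Apart from those named, the causes were not tested.

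Signs near 0 turned at single windows. With library size alone Itga7 was at 0.026 and Lamc1 at 0.039. When 1 sample was left out, Itga7 ran from -0.10 to 0.049, Itgb1 from -0.030 to 0.24, Itga6 from -0.025 to 0.19, Lama2 from -0.025 to 0.14, Lama5 from -0.027 to 0.22, Lamb2 from -0.019 to 0.13 and Lamc1 from -0.16 to 0.060.

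Same-numbered samples of the groups did not deviate together (correlations of 0.19, -0.12 and 0.09 over windows and 0.02, -0.09 and -0.14 over peaks), so the numbers were not read as pairs. With the replicate block, 0 member windows and 2 member peaks were called, 2 windows and 14 peaks had an unadjusted p under 0.05, the medians were 0.09 and 0.03, and no partner window was called. The whole-table counts were 12 lower and 1 higher windows, and 193 lower and 14 higher peaks. LacZ-shRNA replicate 1 decided the count of called windows over all genes, 157 without it against 11.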
